A study of Mus musculus with 36 samples.

Results

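The 44 genes described here encode proteins that carry a cell through its division cycle: the cyclins and cyclin-dependent kinases that time the phases, their inhibitors, the machinery that copies DNA, and the kinases, motors and checkpoint proteins of mitosis. They were chosen by gene symbol, and all 44 were found among the 52636 genes of the count table by their Ensembl identifiers. The genes were compared between 3 kinds of cells sorted from skeletal muscle of juvenile S100β-GFP;NG2-dsRed mice. All groups carried both transgenes, in which the promoter of S100b, a gene of Schwann cells, drives GFP and the promoter of Cspg4, the gene for NG2, drives dsRed. Cells positive for both colours were taken as perisynaptic Schwann cells (PSCs), the glia that cover the neuromuscular junction. The other groups were S100β-GFP+ cells, which carry GFP alone, and NG2-dsRed+ cells, which carry dsRed alone and are taken in muscle to hold pericytes. Diaphragm, pectoralis, forelimb and hindlimb muscles of a single mouse gave each library, and the methods give P15 to P21 as the age. The labels give P15 as the youngest age of every library and an oldest age that rises by a day per library from P21 to P46 and then stays at P46, so age was not used. Counts were on hand for 27 of the 36 labelled libraries: 9 of PSCs, 8 of S100β-GFP+ cells and 10 of NG2-dsRed+ cells. Whether libraries of different cell types came from the same mice is not stated. The methods name fewer S100β-GFP+ replicates than the table has columns, and do not say which they were.

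A cell enters the cycle when D-type cyclins, bound to their kinases, switch off the retinoblastoma protein and free E2F factors, which turn on genes for DNA synthesis. Licensing factors load the MCM helicase on origins before S phase, and cyclin A and cyclin B with CDK1 then drive the cell into mitosis, after which the anaphase-promoting complex ends it. Schwann cells divide in young nerve and mostly leave the cycle as they mature, and many of the genes below are made mainly in dividing cells.

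Promoters of these genes are shown first, because the genes are grouped by phase in what follows. RefSeq promoter sequences of GRCm38.p6 were on hand for 36 of the 44 genes, in 41 windows from 250 bases before to 50 bases after a start site, since 5 genes have more than 1 start. Motifs were searched on both strands. The cell cycle genes homology region (CHR), which is bound by the MuvB complex, was searched as TTTGAA and TTCGAA. The CCAAT box, which is bound by NF-Y, was searched as CCAAT. The E2F site was searched as TTTCCCGC, TTTGGCGC, TTTCGCGC and TTTGCCGC. Forms of the E2F site on opposite strands can overlap, and the first bases of TTTGAA are also the first bases of TTTGGCGC and TTTGCCGC. A CHR was in 15 of 19 windows of genes of G2 and M phase (78.9%), in 3 of 13 windows of DNA replication genes (23.1%), in 0 of 9 windows of the G1 regulators and in 19.2% of all 32851 promoters. The CCAAT box was in 17 of the 19 windows (89.5%), in 10 of the 13 (76.9%), in 3 of the 9 (33.3%) and in 37.4% of all promoters. The E2F site was in 1 of the 19 windows (5.26%), in 6 of the 13 (46.2%), in 0 of the 9 and in 2.26% of all promoters. These are matches of letters and not measured sites, and no match says only that these letters are not in the window.

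The 200 bases before the start site are given for examples among the genes in which no annotated exon lies in that stretch, on the strand of the gene, from 5′ to 3′, with CHR, CCAAT and E2F matches in capitals. Mki67 (chr7:135716380-135716579, minus strand) and Top2a (chr11:99024190-99024389, minus strand) stand for the proliferation markers, Ccnb2 (chr9:70421555-70421754, minus strand) for the mitotic cyclins, Mcm2 (chr6:88898781-88898980, minus strand), Mcm3 (chr1:20820313-20820512, minus strand), Mcm5 (chr8:75109309-75109508, plus strand) and Mcm6 (chr1:128359706-128359905, minus strand) for the helicase, and Cdkn1b (chr6:134920201-134920400, plus strand) for the G1 regulators.
Mki67: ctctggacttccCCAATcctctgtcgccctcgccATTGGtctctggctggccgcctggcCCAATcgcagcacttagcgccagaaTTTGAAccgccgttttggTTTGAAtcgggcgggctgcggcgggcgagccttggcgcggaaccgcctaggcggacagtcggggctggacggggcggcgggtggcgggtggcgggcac
Top2a: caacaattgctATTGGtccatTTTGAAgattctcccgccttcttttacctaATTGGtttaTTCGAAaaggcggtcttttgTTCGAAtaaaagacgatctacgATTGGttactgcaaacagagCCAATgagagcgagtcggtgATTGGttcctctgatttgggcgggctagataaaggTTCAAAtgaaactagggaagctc
Ccnb2: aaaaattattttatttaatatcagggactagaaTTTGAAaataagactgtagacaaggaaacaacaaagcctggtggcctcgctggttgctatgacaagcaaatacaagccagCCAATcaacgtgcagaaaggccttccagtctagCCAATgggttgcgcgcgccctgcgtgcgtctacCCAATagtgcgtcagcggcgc
Mcm2: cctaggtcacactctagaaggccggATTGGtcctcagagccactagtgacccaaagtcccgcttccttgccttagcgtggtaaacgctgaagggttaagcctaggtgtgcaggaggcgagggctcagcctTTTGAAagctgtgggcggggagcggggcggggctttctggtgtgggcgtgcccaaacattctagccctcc
Mcm3: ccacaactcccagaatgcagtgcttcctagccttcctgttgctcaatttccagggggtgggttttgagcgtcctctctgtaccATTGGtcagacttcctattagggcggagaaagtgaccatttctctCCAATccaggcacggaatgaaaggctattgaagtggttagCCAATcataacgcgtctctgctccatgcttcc
Mcm5: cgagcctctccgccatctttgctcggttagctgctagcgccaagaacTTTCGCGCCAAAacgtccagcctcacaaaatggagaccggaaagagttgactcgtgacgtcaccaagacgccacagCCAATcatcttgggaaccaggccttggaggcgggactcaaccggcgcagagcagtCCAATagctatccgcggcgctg
Mcm6: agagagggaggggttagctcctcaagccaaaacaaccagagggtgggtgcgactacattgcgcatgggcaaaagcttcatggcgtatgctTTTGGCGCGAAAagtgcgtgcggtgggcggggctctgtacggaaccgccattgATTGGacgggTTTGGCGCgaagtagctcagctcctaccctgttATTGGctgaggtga
Cdkn1b: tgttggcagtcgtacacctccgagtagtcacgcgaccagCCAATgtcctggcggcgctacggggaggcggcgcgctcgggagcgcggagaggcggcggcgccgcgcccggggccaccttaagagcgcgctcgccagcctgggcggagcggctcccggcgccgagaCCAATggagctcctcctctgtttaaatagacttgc
The 200 bases of Mki67, Top2a and Ccnb2 hold CHR and CCAAT matches and no E2F match. The helicase genes differ. The 200 bases of Mcm5 and Mcm6 hold overlapping E2F matches and CCAAT matches and no CHR. Those of Mcm2 hold a CHR and a CCAAT match and no E2F match. Those of Mcm3 and Cdkn1b hold CCAAT matches alone, but the longer window of Mcm3, counted above, also holds 2 E2F matches. Not every mitotic gene has a CHR in these 200 bases. Among stretches with no annotated exon, those of Cenpf and Kif23 hold CCAAT matches alone and that of Birc5 holds none of the motifs. In the longer windows counted above, Cenpf and Kif23 each hold 1 CHR, and Birc5 again holds none of the motifs.

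Levels below are counts scaled to a library of 1000000 counts (CPM), with library sizes corrected by the trimmed mean of M-values (TMM). Libraries held 5221655 to 9592875 counts on genes, so 1 CPM rests on a handful of counts. Differences are log2 fold changes with their standard errors (SE) from the edgeR quasi-likelihood test, with p-values adjusted over 15330 genes and a threshold of 0.05. Kif11, which encodes a motor that pushes spindle poles apart, reached at most 1.21 CPM in any library and did not pass the filter on low counts, so 43 of the 44 genes were tested. In RNA of sorted cells, fewer dividing cells and less RNA per dividing cell cannot be told apart.

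Libraries and labels were checked before the groups were compared. PSC libraries carried RNA of most Schwann cell markers and less immune RNA than the S100β-GFP+ libraries. Sox10, the transcription factor that defines the Schwann cell lineage, had 376, 465 and 700 CPM as lowest, median and highest value in PSCs, 5.55, 16.8 and 38.7 CPM in S100β-GFP+ cells and 1.45, 3.90 and 9.75 CPM in NG2-dsRed+ cells. Erbb3, the neuregulin receptor of the lineage, had medians of 309, 11.9 and 2.29 CPM in the same order, and S100b, the gene for which the GFP reporter is named, had 160, 30.4 and 5.41 CPM. Ngfr, the low-affinity neurotrophin receptor, had medians of 7.62, 4.54 and 10.9 CPM and passed the test in none of the 3 comparisons, and Gfap, an intermediate filament, was near 0 in all 3 cell types (medians of 0.258, 0.366 and 0 CPM). The S100β-GFP+ libraries also held RNA of other cells. The 10 macrophage and leukocyte markers summed to 2610 to 20200 CPM there (median 14800), led by Cd74 at a median of 7010 CPM, against 43.0 to 587 CPM in PSCs and 23.3 to 122 CPM in NG2-dsRed+ cells, and all 10 were lower in PSCs than in S100β-GFP+ cells. Ptprc, the pan-leukocyte phosphatase CD45, had a median of 0.569 CPM in PSCs, 315 CPM in S100β-GFP+ cells and 2.18 CPM in NG2-dsRed+ cells. Lyz2, the lysozyme of macrophages, went otherwise, with medians of 122, 4870 and 23.3 CPM (563 CPM in PSC library 18), and was higher in PSCs than in NG2-dsRed+ cells (2.65 ± 0.49, adjusted p = 5.32e-05). The 8 fibroblast markers, led by Col3a1, summed to a median of 30200 CPM in S100β-GFP+ cells, 1270 CPM in PSCs and 8770 CPM in NG2-dsRed+ cells, and the 6 erythroid markers to 11900, 294 and 1580 CPM. NG2-dsRed+ libraries were led by pericyte and smooth muscle markers, with a sum of 12100 CPM over 11 genes against 1470 CPM in PSCs and 863 CPM in S100β-GFP+ cells. Cspg4, the gene on whose promoter the dsRed label rests, had medians of 715, 53.2 and 665 CPM in PSCs, S100β-GFP+ cells and NG2-dsRed+ cells and was the most abundant of the 11 in PSCs, followed by Mcam with 279, 21.6 and 222 CPM. Both were higher in PSCs relative to S100β-GFP+ cells and were not called between PSCs and NG2-dsRed+ cells (adjusted p = 0.877 and 0.209), while Rgs5, the most abundant in NG2-dsRed+ cells, had medians of 70.3, 172 and 5380 CPM. NG2-dsRed+ libraries also held endothelial markers, with 2720 CPM over 8 genes against 327 and 192 CPM. Median sums over the 8 satellite cell and myoblast markers were 379 CPM in PSCs, 92.5 CPM in S100β-GFP+ cells and 86.1 CPM in NG2-dsRed+ cells. Only Sdc4 (medians of 223, 70.2 and 38.9 CPM) and Megf10 (116, 3.11 and 4.55 CPM) of these 8 were higher in PSCs than in either other type, while Pax7, which defines satellite cells, had 4.47, 2.49 and 4.73 CPM. Median sums over 8 genes of muscle fibres were 429, 328 and 394 CPM, those over 6 melanocyte markers 121, 36.3 and 12.5 CPM, and those over 7 chondrocyte and tenocyte markers 24.7, 251 and 89.8 CPM. No marker was at 0 in every library of a cell type. The part of these other cells in the differences below was not tested.

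Some libraries stood apart. S100β-GFP+ libraries 14, 17 and 22 had a count on 25890, 29103 and 38568 genes, while the other 5 S100β-GFP+ libraries had one on 19669 to 23292 genes. The same 3 libraries had the lowest macrophage and leukocyte sums of their group (7080, 4610 and 2610 CPM against 14300 to 20200 CPM) and the highest endothelial sums (845, 2720 and 1410 CPM against 128 to 199 CPM). Their erythroid sums were 21400, 130000 and 54400 CPM, against 24.8 to 24900 CPM in the other 5. Olfactory receptor genes, which are mainly made in the nose, had a count for 412, 686 and 1047 genes in the 3 libraries and for 95 to 187 in the other 5. PSC library 18 had a count on 14616 genes, the fewest of all libraries, while the other PSC libraries had one on 20203 to 22533. PSC library 31 held 4540 CPM of the chondrocyte and tenocyte markers, of which the other 8 PSC libraries had 94.9 CPM or less.

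**Figure D1:**
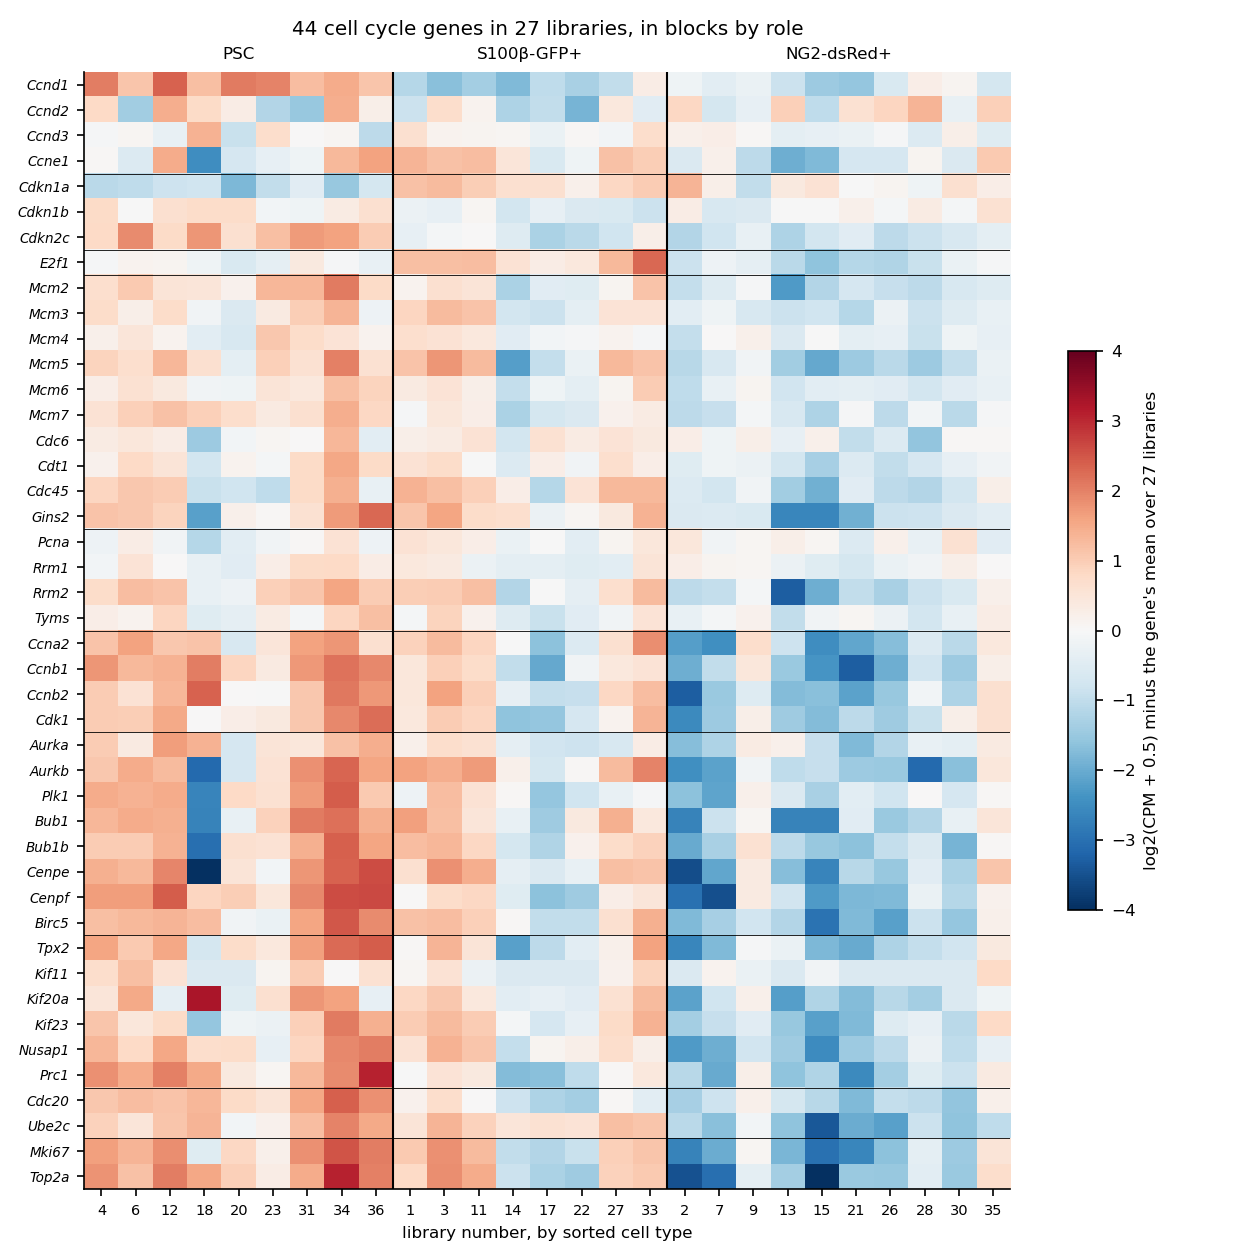
Level of the 44 genes (rows, in blocks by role from G1 cyclins at the top to Mki67 and Top2a at the bottom) in 27 libraries (columns, by sorted cell type), as log2(CPM + 0.5) minus the mean of the gene over all libraries, from blue (low) to red (high). The lower blocks are red in most PSC libraries and blue in most NG2-dsRed+ libraries, with S100β-GFP+ libraries 14, 17 and 22 paler or blue beside the other 5 and PSC library 18 blue for 7 genes with at most 1 count there.

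The comparison of PSCs with NG2-dsRed+ cells asked how far the double-labelled glia differ from the other NG2-positive cells of muscle. Of the 43 genes tested, 35 were higher in PSCs (81.4%, against 20.9% of all genes tested) and 1 was lower (2.33%, against 23.1%), the CDK inhibitor gene Cdkn1a. The median log2 fold change of the 43 genes was 1.95 and that of all genes 0.02. All 21 tested genes of G2 and M phase were higher in PSCs, with a median of 2.42, as were 11 of the 14 DNA replication genes, with a median of 1.14. For 7 of the 44 genes, the lowest PSC library was above the highest NG2-dsRed+ library (Ccnd1, Cdkn2c, Mcm2, Mcm7, Cenpf, Cdc20 and Ube2c), which was so for 5.06% of all genes tested. Without PSC library 18, 38 genes were higher, with Ccne1 (1.15, adjusted p = 0.0307), Cdkn1b (0.44, adjusted p = 0.0424) and Rrm1 (0.49, adjusted p = 0.0275) added, and Tpx2, as in other settings below, passed the threshold against S100β-GFP+ cells (1.28, adjusted p = 0.0221). Without PSC library 31, Cdkn1b was called (adjusted p = 0.0288) and E2f1 was not (adjusted p = 0.0611).

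S100β-GFP+ cells were also above NG2-dsRed+ cells. In that comparison 25 of the 43 genes were higher in S100β-GFP+ cells (58.1%, against 18.1% of all genes) and 1 was lower, Cdkn1b (2.33%, against 15.2%), and the median log2 fold change was 1.09 against -0.02 for all genes. By role, 15 of the 21 genes of G2 and M phase and 8 of the 14 DNA replication genes were higher. E2f1, Gins2 and Ube2c had ranges that did not overlap. These are 3 of the 44 genes, a share near the 7.15% of all genes in this direction. Without libraries 14, 17 and 22, 32 genes were higher, with Cdkn1a, Mcm4, Mcm7, Cdk1, Cenpf, Prc1 and Cdc20 added at log2 fold changes of 0.68 (Mcm4) to 1.46 (Cdk1) and adjusted p of 0.00765 (Mcm7) to 0.0463 (Prc1), and Cdkn1b was no longer called (adjusted p = 0.141). The 3 cell types share an estimate of the spread, and without PSC library 18 Cdkn1a and Mcm4 were also called here (adjusted p = 0.0433 and 0.0318) and Cdkn1b was not (adjusted p = 0.0542).

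The comparison of PSCs with S100β-GFP+ cells asked what sets PSCs apart among GFP-positive cells. Here 11 of the 43 genes were higher in PSCs (25.6%), a share near the 22.9% of all genes, and 2 were lower (4.65%, against 24.1%), Cdkn1a and E2f1. The median log2 fold change was 0.60 against 0.04 for all genes. Ccnd1 and Cdkn2c lay above every S100β-GFP+ library in all PSC libraries. These are 2 of the 44 genes, a share near the 5.26% of all genes. Cdkn1a lay below (1 of the 44), a smaller share than the 10.3% of all genes. The 11 genes were Ccnd1, Cdkn1b, Cdkn2c, Mcm2, Mcm7, Ccnb1, Aurka, Plk1, Cenpf, Prc1 and Cdc20. Without libraries 14, 17 and 22, 7 of them were called, since Mcm2, Ccnb1, Aurka and Plk1 no longer passed the threshold (adjusted p between 0.0811 and 0.181, edgeR). The comparisons share libraries, so their calls are not independent of each other.

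**Figure D2:**
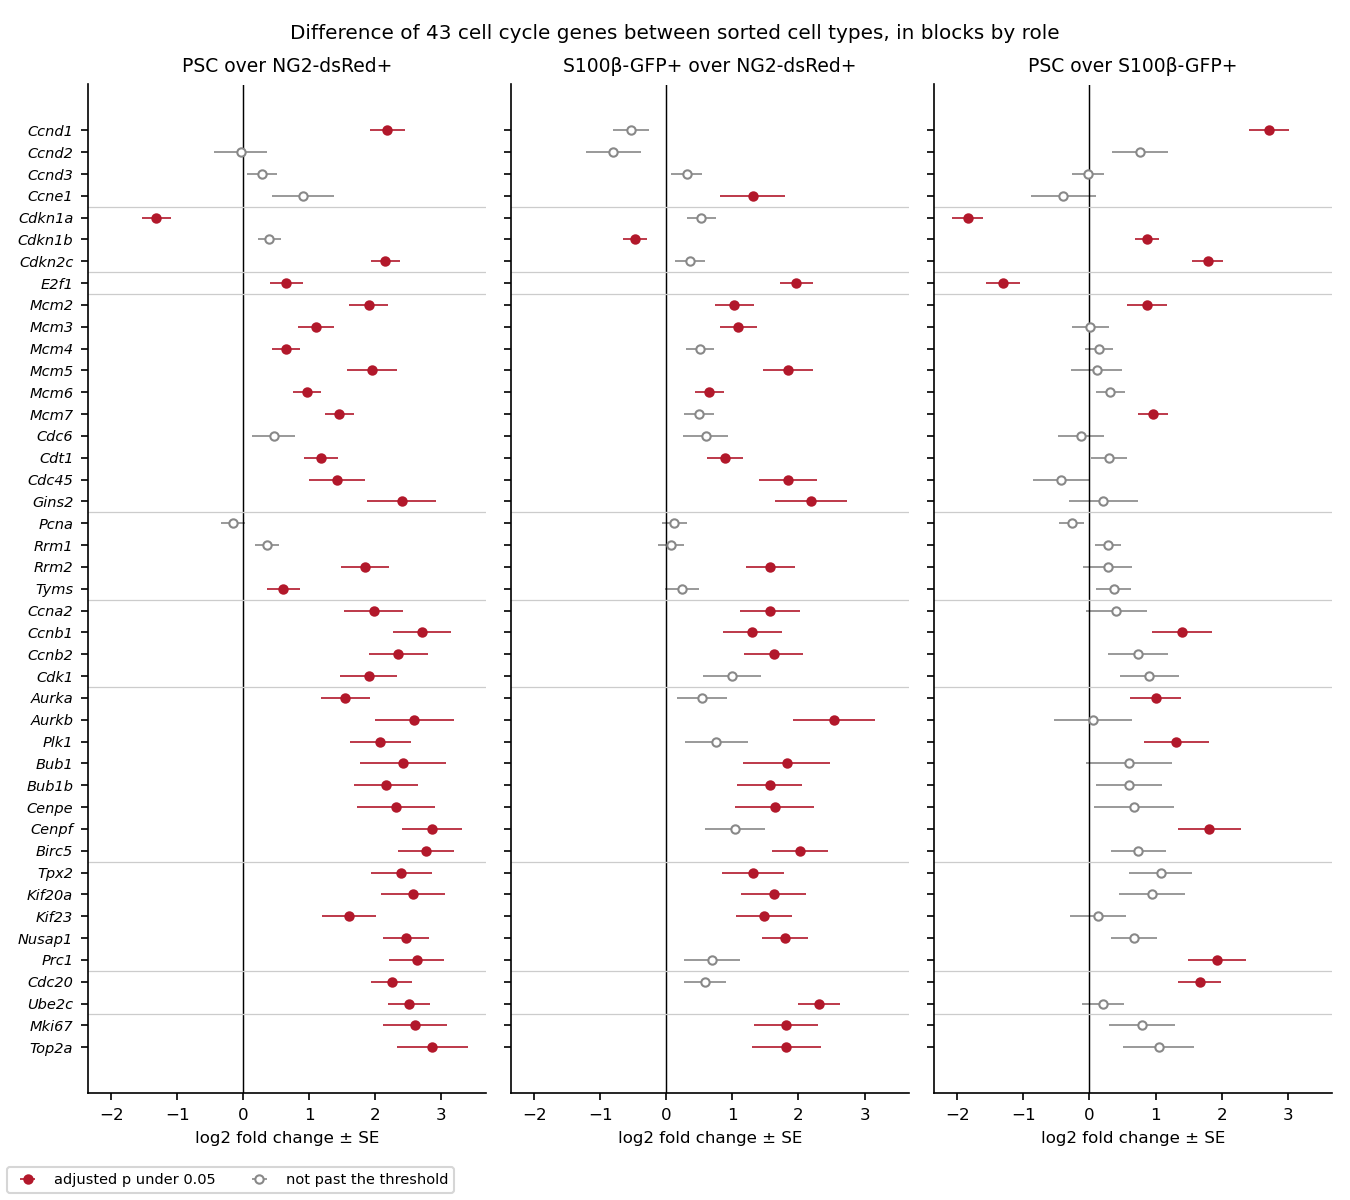
Log2 fold change ± SE of 43 genes (rows, in blocks by role) in the 3 comparisons of sorted cell types (panels), with filled red points past an adjusted p of 0.05 and open grey points not past it. The left panel has 35 red points to the right of 0 and 1 to the left, the middle panel 25 and 1, and the right panel 11 and 2.

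The D-type cyclins, which start the cycle in response to growth signals, did not move together. Ccnd1 (cyclin D1, chromosome 7, 144929931 to 144939925 in GRCm38) had a lowest, median and highest level of 61.1, 80.2 and 146 CPM in PSCs. It had 7.91, 12.0 and 34.7 CPM in S100β-GFP+ cells and 9.39, 19.7 and 34.2 CPM in NG2-dsRed+ cells. Every PSC library was above every other library. The log2 fold change was 2.71 ± 0.30 over S100β-GFP+ cells (adjusted p = 9.62e-09) and 2.18 ± 0.27 over NG2-dsRed+ cells (adjusted p = 9.34e-08). Ccnd1 shares 1100 of its 4709 exonic bases with LTO1 on the other strand, and LTO1 was not called in these comparisons (0.37 ± 0.38 and 0.35 ± 0.36). Ccnd2 and Ccnd3 share up to 372 and 361 exonic bases with genes on the other strand. Ccnd2 (cyclin D2) was the most abundant of the 3 and its groups overlapped, with 188 to 1470 CPM in PSCs (median 662), 147 to 869 CPM in S100β-GFP+ cells (median 344) and 266 to 1370 CPM in NG2-dsRed+ cells (median 894). Ccnd3 (cyclin D3) had medians of 66.8, 69.8 and 59.1 CPM. Neither passed the threshold in any comparison, and the 95% interval of the difference between PSCs and NG2-dsRed+ cells (1.96 SE to each side) went from -0.82 to 0.74 for Ccnd2 and from -0.16 to 0.73 for Ccnd3. With the share of counts on 3 abundant transcripts (below) as a term in the fit, Ccnd2 was lower in PSCs than in NG2-dsRed+ cells (-0.76, adjusted p = 0.0342) and Ccnd3 higher (0.51, adjusted p = 0.0393). Per kilobase of exon the order of the 3 cyclins differed between cell types. In PSCs the medians were 70.3 CPM per kilobase for Ccnd2, 17.0 for Ccnd1 and 7.61 for Ccnd3, while in S100β-GFP+ cells they were 36.5 for Ccnd2, 7.95 for Ccnd3 and 2.56 for Ccnd1, and in NG2-dsRed+ cells 95.0, 6.74 and 4.19. Ccne1 encodes cyclin E1, which acts with CDK2 at the entry to S phase. Its levels were 0.349 to 13.8 CPM in PSCs (median 3.70), 2.58 to 11.7 CPM in S100β-GFP+ cells (median 9.45) and 0.710 to 9.34 CPM in NG2-dsRed+ cells (median 2.57). It was higher in S100β-GFP+ than in NG2-dsRed+ cells (1.31 ± 0.49, adjusted p = 0.0391), a call that 12 of the fits without a single library did not make. With the same term in the fit, Ccne1 was lower in PSCs relative to S100β-GFP+ cells (-1.19, adjusted p = 0.0478, against -0.40 and 0.533 without it).

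The CDK inhibitors moved in opposite directions. Cdkn1a encodes p21, a target of p53 that stops the cycle, and it was the gene of the set with the largest fall in PSCs. Its lowest, median and highest levels were 63.6, 112 and 164 CPM in PSCs, 254, 416 and 538 CPM in S100β-GFP+ cells and 113, 263 and 571 CPM in NG2-dsRed+ cells. Every PSC library was below every S100β-GFP+ library, and the PSC range overlapped that of NG2-dsRed+ cells only through library 9 of the latter at 113 CPM. It fell by 1.85 on the log2 scale against S100β-GFP+ cells (SE 0.23, adjusted p = 1.01e-07) and by 1.32 against NG2-dsRed+ cells (SE 0.22, adjusted p = 1.29e-05). Cdkn2c encodes p18, which blocks the kinases of D-type cyclins, and it was high in PSCs. It had 18.3, 27.1 and 44.0 CPM in PSCs, 4.46, 8.43 and 13.5 CPM in S100β-GFP+ cells and 4.61, 6.54 and 9.23 CPM in NG2-dsRed+ cells. The PSC libraries did not overlap those of either other cell type, with log2 fold changes of 1.79 ± 0.23 (adjusted p = 2.36e-07) and 2.15 ± 0.22 (adjusted p = 3.04e-09). Cdkn1b encodes p27, which holds cells out of the cycle. It had a median of 52.3 CPM in PSCs, 24.5 CPM in S100β-GFP+ cells and 33.1 CPM in NG2-dsRed+ cells, with overlapping ranges. It was higher in PSCs relative to S100β-GFP+ cells (0.87 ± 0.18, adjusted p = 0.000271), while against NG2-dsRed+ cells the adjusted p was 0.0614, and below the threshold in 9 of the fits without a single library. Cdkn1b was also called there with DESeq2 (adjusted p = 0.0497), with DESeq2 size factors in edgeR (adjusted p = 0.0423) and with limma-voom (adjusted p = 0.00708). The remaining settings did not call it. It was lower in S100β-GFP+ than in NG2-dsRed+ cells (adjusted p = 0.0419), but 16 of the fits without a single library and 5 other alternatives did not call it.

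E2f1, the E2F activator of S phase genes, was ordered otherwise than most genes of mitosis. Of those, Aurkb and Kif23 also had their highest median in S100β-GFP+ cells. Its levels were 5.80, 8.71 and 12.0 CPM in PSCs, 11.3, 21.5 and 46.2 CPM in S100β-GFP+ cells and 2.62, 4.75 and 8.70 CPM in NG2-dsRed+ cells. Every S100β-GFP+ library was above every NG2-dsRed+ library, and library 33, with 46.2 CPM, was the highest. PSCs were lower than S100β-GFP+ cells by 1.31 on the log2 scale (SE 0.26, adjusted p = 0.000109) and higher than NG2-dsRed+ cells by 0.66 (SE 0.25, adjusted p = 0.0324). The last call was lost without PSC library 31 or without NG2-dsRed+ library 13, 15, 21 or 26, and with no filter on low counts (adjusted p = 0.0764).

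The MCM helicase, which unwinds DNA at origins, was higher in PSCs than in NG2-dsRed+ cells in each of its 6 subunits. Mcm2 had 12.7, 19.3 and 48.4 CPM in PSCs, 4.39, 12.1 and 25.0 CPM in S100β-GFP+ cells and 1.95, 6.24 and 10.9 CPM in NG2-dsRed+ cells. Mcm7 had 32.5, 45.2 and 69.4 CPM in PSCs, 10.2, 26.4 and 34.4 CPM in S100β-GFP+ cells and 10.5, 14.5 and 24.6 CPM in NG2-dsRed+ cells. For these genes the PSC and NG2-dsRed+ ranges were apart, and they were the only replication genes of the 14 that were higher in PSCs relative to S100β-GFP+ cells, by 0.87 ± 0.31 (adjusted p = 0.0201) and 0.96 ± 0.23 (adjusted p = 0.0011). The call for Mcm2 was lost without PSC library 34, and that for Mcm6 between S100β-GFP+ and NG2-dsRed+ cells (0.65, adjusted p = 0.0176) without S100β-GFP+ library 33. Mcm5 was spread widely in S100β-GFP+ cells, from 2.81 CPM in library 14 to 51.1 in library 3 (median 32.5), with a median of 23.5 CPM in PSCs and 6.55 CPM in NG2-dsRed+ cells. It was 3.86-fold higher in PSCs and 3.58-fold higher in S100β-GFP+ cells than in NG2-dsRed+ cells (adjusted p = 8.98e-05 and 0.00033), and its difference between PSCs and S100β-GFP+ cells had a 95% interval from -0.64 to 0.86. Mcm3, Mcm4 and Mcm6 were higher in PSCs than in NG2-dsRed+ cells by 0.65 to 1.10 on the log2 scale. Mcm7 shares up to 321 exonic bases with neighbouring genes. The log2 fold changes of the 6 subunits over NG2-dsRed+ cells went from 0.65 for Mcm4 to 1.95 for Mcm5, which form a ring with a single copy of each.

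Of the loading and firing factors, Cdt1, which brings MCM to origins, Cdc45 and Gins2, which complete the active helicase, were higher in both GFP-positive cell types than in NG2-dsRed+ cells. Gins2 had 0.174 to 14.6 CPM in PSCs (median 5.19), 2.11 to 8.70 CPM in S100β-GFP+ cells (median 4.47) and 0 to 1.77 CPM in NG2-dsRed+ cells (median 1.36), with log2 fold changes over the latter of 2.40 ± 0.53 and 2.19 ± 0.54. The lowest PSC value was that of library 18, and Gins2 shares 2758 exonic bases with Gse1 on the other strand, so that part of its reads can come from either gene. Cdc45 had medians of 4.98, 6.24 and 1.41 CPM for PSCs, S100β-GFP+ cells and NG2-dsRed+ cells, and Cdt1 had 8.20, 6.83 and 3.76 CPM. Cdc6, which loads MCM with Cdt1, did not pass the threshold in any comparison, with medians between 3.10 and 4.32 CPM.

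The 4 genes of the clamp and of nucleotide synthesis had a median log2 fold change of 0.48 between PSCs and NG2-dsRed+ cells, against 1.30 for the 10 genes of licensing and the helicase. Pcna, the sliding clamp of DNA polymerases that also serves DNA repair, had 27.9, 55.5 and 92.2 CPM in PSCs, 46.2, 71.0 and 91.8 CPM in S100β-GFP+ cells and 42.5, 65.3 and 95.2 CPM in NG2-dsRed+ cells. The groups overlapped over most of their range. The 95% interval for PSCs against NG2-dsRed+ cells went from -0.51 to 0.21, so a difference of 2-fold lies outside it. Rrm1, the large subunit of ribonucleotide reductase, which makes deoxynucleotides, did not pass the threshold in any comparison (medians of 44.6, 29.8 and 35.3 CPM). Without PSC library 4, 18 or 20 or NG2-dsRed+ library 2, Rrm1 was higher in PSCs than in NG2-dsRed+ cells (0.47 to 0.50, adjusted p between 0.0275 and 0.0484). Rrm2, its small subunit whose protein is present in S phase, had medians of 20.0, 17.6 and 4.66 CPM and was 3.60-fold higher in PSCs (adjusted p = 0.000121) and 2.98-fold higher in S100β-GFP+ cells (adjusted p = 0.00132) than in NG2-dsRed+ cells. Tyms, thymidylate synthase, was higher in PSCs than in NG2-dsRed+ cells by 0.61 ± 0.25 with an adjusted p of 0.0493, which 15 of the 27 fits without a single library put above the threshold, as did no filter on low counts (adjusted p = 0.111) and the share of counts on 3 abundant transcripts as a term (0.40, adjusted p = 0.237).

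The 3 cyclins and the kinase of S phase to mitosis were all higher in PSCs than in NG2-dsRed+ cells, by 1.90 to 2.70 on the log2 scale. Ccnb1, cyclin B1, which activates CDK1 at mitosis, had 9.67, 25.8 and 34.7 CPM in PSCs, 1.41, 10.2 and 14.9 CPM in S100β-GFP+ cells and 0.308, 2.35 and 10.2 CPM in NG2-dsRed+ cells. PSC libraries 23 (9.67 CPM) and 20 (13.8 CPM) were inside the range of the other cell types, and the other 7 were above it. Ccnb1 was also higher in PSCs relative to S100β-GFP+ cells (1.40 ± 0.45, adjusted p = 0.0116), and its call between S100β-GFP+ and NG2-dsRed+ cells (1.30, adjusted p = 0.0239) was lost without S100β-GFP+ library 3. Ccnb2, cyclin B2, had 14.0, 30.3 and 73.8 CPM in PSCs, 7.05, 22.3 and 43.8 CPM in S100β-GFP+ cells and 0.989, 4.62 and 22.2 CPM in NG2-dsRed+ cells, and Ccna2, cyclin A2, had medians of 32.1, 24.2 and 5.25 CPM and shares 510 exonic bases with Exosc9 on the other strand. Cdk1, the kinase of mitotic entry, had medians of 27.6, 16.3 and 5.41 CPM. Cdk1 was not called between S100β-GFP+ and NG2-dsRed+ cells (1.00 ± 0.44, adjusted p = 0.0811), but it was without libraries 14, 17 and 22 (1.46, adjusted p = 0.00947), without library 14, 17 or NG2-dsRed+ library 35 alone, and with limma-voom (adjusted p = 0.0288). Between PSCs and S100β-GFP+ cells the adjusted p of Cdk1 was 0.0998, and it was called without S100β-GFP+ library 33 (1.13, adjusted p = 0.0486) and with limma-voom (1.04, adjusted p = 0.0264). Without libraries 14, 17 and 22 this log2 difference was 0.49 (adjusted p = 0.414, edgeR), against 0.90 in the main fit.

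All 8 genes of mitotic kinases, kinetochore and checkpoint were higher in PSCs than in NG2-dsRed+ cells, and 5 of the 8 were higher in S100β-GFP+ than in NG2-dsRed+ cells (against 18.1% of all genes). Of those 5, Cenpe (adjusted p = 0.0341) was not called in 11 of the fits without a single library (S100β-GFP+ library 3, 11, 27 or 33, NG2-dsRed+ library 2, 7, 13, 15, 21, 26 or 30), and Bub1 (adjusted p = 0.0335) in 4 (S100β-GFP+ library 1, 3 or 27, NG2-dsRed+ library 26). Cenpf (1.04, adjusted p = 0.0797) was called there without S100β-GFP+ library 17 or 22 or NG2-dsRed+ library 9 or 35, and without libraries 14, 17 and 22. It was also called with limma-voom (1.70, adjusted p = 0.00353) and with the share of counts on 3 abundant transcripts as a term (1.10, adjusted p = 0.033). The remaining settings did not call it. Cenpf, a protein of the outer kinetochore, had 24.5, 58.5 and 115 CPM in PSCs, 5.40, 19.9 and 32.1 CPM in S100β-GFP+ cells and 1.10, 6.41 and 23.3 CPM in NG2-dsRed+ cells. The PSC range did not meet that of NG2-dsRed+ cells, and Cenpf was 2.86 ± 0.46 above it (adjusted p = 7.22e-06) and 1.82 ± 0.47 above S100β-GFP+ cells (adjusted p = 0.00227). Aurka and Plk1, kinases that build and ripen the spindle poles, were higher in PSCs relative to S100β-GFP+ cells by 1.00 ± 0.39 (adjusted p = 0.0334) and 1.32 ± 0.49 (adjusted p = 0.0271), with medians of 9.34 and 10.6 CPM against 4.20 and 3.36 CPM. The call for Aurka was lost without any of 6 single libraries (PSC library 12 or 36, S100β-GFP+ library 14, 17, 22 or 27), and that for Plk1 without PSC library 34 or S100β-GFP+ library 17 or 22. Both were also lost with the share of counts on 3 abundant transcripts as a term (adjusted p = 0.139 and 0.084). Aurkb, the kinase of the chromosomal passenger complex, and its partner Birc5 (survivin) were higher in both GFP-positive types than in NG2-dsRed+ cells, by 2.59 ± 0.60 and 2.76 ± 0.42 in PSCs and 2.54 ± 0.62 and 2.02 ± 0.43 in S100β-GFP+ cells. For Aurkb the difference between PSCs and S100β-GFP+ cells had an interval from -1.10 to 1.21. The checkpoint kinases Bub1 and Bub1b and the kinetochore motor Cenpe had PSC medians of 8.10, 10.4 and 28.4 CPM and NG2-dsRed+ medians of 1.08, 1.93 and 3.59 CPM. PSC library 18 had 0 or 1 count of Aurkb, Plk1, Bub1, Bub1b and Cenpe.

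Among genes of the spindle and of cytokinesis, 5 of 6 could be tested and all 5 were higher in PSCs than in NG2-dsRed+ cells. Prc1, which bundles microtubules of the central spindle, had 13.1, 36.5 and 109 CPM in PSCs, 3.34, 12.6 and 18.5 CPM in S100β-GFP+ cells and 1.69, 5.29 and 16.1 CPM in NG2-dsRed+ cells. Prc1 was 2.62 ± 0.42 on the log2 scale above NG2-dsRed+ cells (adjusted p = 6.18e-06) and 1.93 ± 0.44 above S100β-GFP+ cells (adjusted p = 0.000562), although it shares 911 exonic bases with Rccd1 on the other strand. Tpx2, which activates Aurora A on the spindle, and Nusap1, which stabilizes spindle microtubules, had medians of 31.2 and 17.2 CPM in PSCs, 11.4 and 12.5 CPM in S100β-GFP+ cells and 4.65 and 3.73 CPM in NG2-dsRed+ cells. Between PSCs and S100β-GFP+ cells Tpx2 had an adjusted p of 0.062, and it was called without PSC library 18, 20 or 23, S100β-GFP+ library 3 or 33 or NG2-dsRed+ library 2 or 35 (adjusted p between 0.0221 and 0.0474), with no filter on low counts (adjusted p = 0.0357, edgeR) and with limma-voom (adjusted p = 0.00315). Without S100β-GFP+ libraries 14, 17 and 22 the log2 fold change of Tpx2 was 0.68 (adjusted p = 0.277, edgeR), against 1.08 in the main fit. Its call between S100β-GFP+ and NG2-dsRed+ cells (1.31, adjusted p = 0.0294) was lost without S100β-GFP+ library 3 or 33 or NG2-dsRed+ library 7, 15 or 21. Kif23, a motor of the midbody, was higher in PSCs (1.61 ± 0.41) and in S100β-GFP+ cells (1.48 ± 0.42) than in NG2-dsRed+ cells. Kif20a, a motor of late mitosis, had 2.85 to 15.4 CPM in 8 PSC libraries and 45.4 CPM in library 18, and it shares 1271 exonic bases with Cdc23.

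Both genes of mitotic exit were higher in PSCs than in NG2-dsRed+ cells. Cdc20, the activator of the anaphase-promoting complex, had 16.2, 27.0 and 60.3 CPM in PSCs, 4.05, 9.67 and 18.3 CPM in S100β-GFP+ cells and 2.93, 5.29 and 12.9 CPM in NG2-dsRed+ cells. Ube2c, the ubiquitin-conjugating enzyme of that complex, had 14.4, 34.2 and 63.7 CPM in PSCs, 22.1, 27.2 and 41.3 CPM in S100β-GFP+ cells and 1.05, 4.79 and 14.3 CPM in NG2-dsRed+ cells. Neither gene had a PSC library inside the NG2-dsRed+ range. Cdc20 was 2.25 ± 0.31 above NG2-dsRed+ cells (adjusted p = 7.1e-07) and 1.67 ± 0.33 above S100β-GFP+ cells (adjusted p = 0.000111), and Ube2c was 2.51 ± 0.32 above NG2-dsRed+ cells in PSCs (adjusted p = 1.39e-07) and 2.31 ± 0.32 in S100β-GFP+ cells (adjusted p = 1.18e-06). Ube2c shares 592 exonic bases with Tnnc2, a muscle fibre gene on the other strand, which had medians of 7.06, 7.27 and 8.05 CPM in the 3 cell types and was not called between PSCs and either of them.

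Mki67, the antigen of the Ki-67 proliferation stain, and Top2a, the topoisomerase that untangles chromosomes, were the most abundant genes of the mitotic set. Mki67 (chromosome 7, 135689784 to 135716361) had 32.3, 141 and 261 CPM in PSCs, 19.7, 89.9 and 161 CPM in S100β-GFP+ cells and 5.24, 13.2 and 64.9 CPM in NG2-dsRed+ cells. Top2a (chromosome 11, 98992943 to 99024189) had 71.0, 169 and 484 CPM in PSCs, 21.2, 105 and 212 CPM in S100β-GFP+ cells and 2.10, 20.1 and 93.4 CPM in NG2-dsRed+ cells. The GFP-positive groups overlapped each other. NG2-dsRed+ libraries 9, 28 and 35 lay inside the PSC range for Mki67, whose lowest PSC library was 18, and library 35 for Top2a. Mki67 was 6.07-fold higher in PSCs (adjusted p = 6.19e-05) and 3.50-fold higher in S100β-GFP+ cells (adjusted p = 0.00426) than in NG2-dsRed+ cells, and Top2a 7.28-fold (adjusted p = 5.84e-05) and 3.53-fold (adjusted p = 0.00776). Between PSCs and S100β-GFP+ cells the log2 difference had an interval from -0.17 to 1.77 for Mki67 and from -0.01 to 2.11 for Top2a. Without libraries 14, 17 and 22 that difference was 0.35 ± 0.52 for Mki67 and 0.58 ± 0.57 for Top2a.

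**Figure D3:**
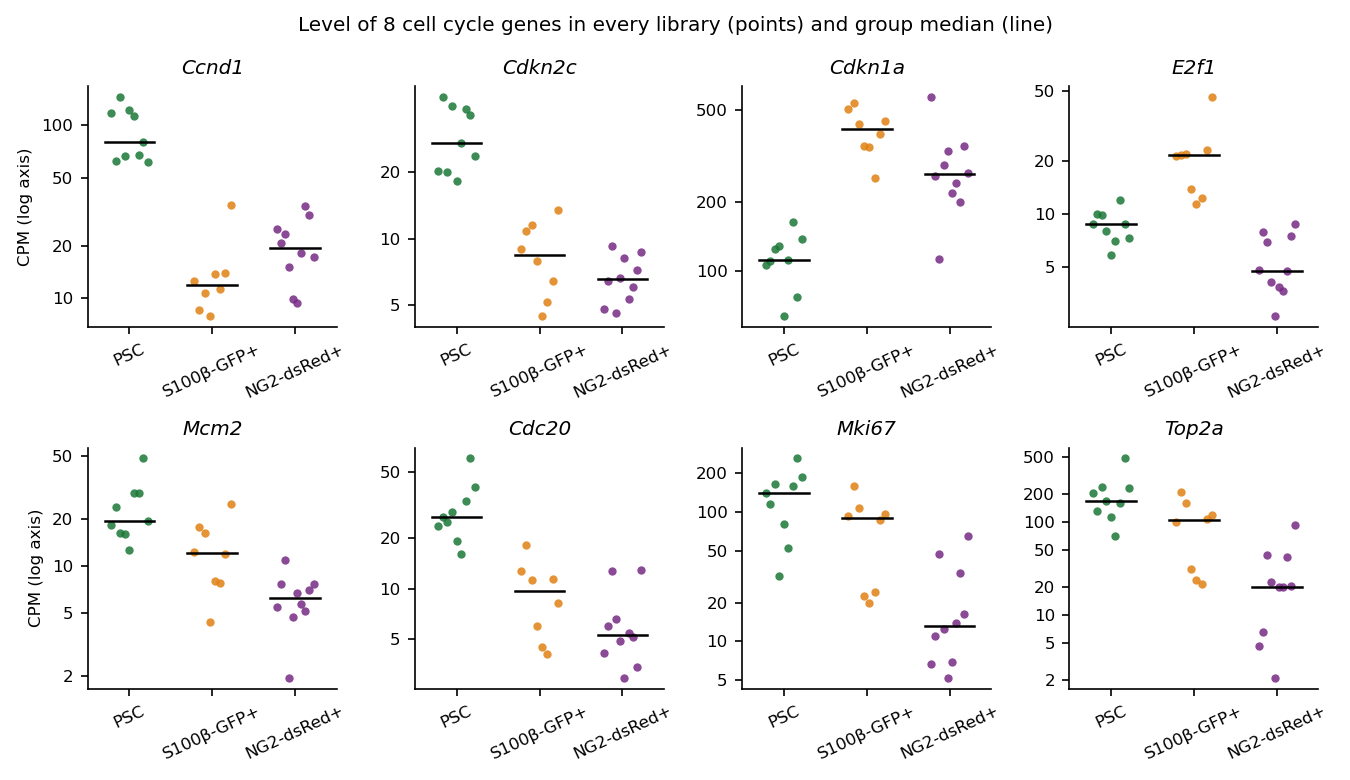
CPM on log axes of 8 genes in every library (points, a library each) of the 3 sorted cell types, with the median of each type as a line. PSC points of Ccnd1 and Cdkn2c lie above all others, those of Cdkn1a lie below all S100β-GFP+ points, E2f1 is highest in S100β-GFP+ cells, and the Mki67 and Top2a points of S100β-GFP+ cells fall into 5 high and 3 low libraries.

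Levels varied between the libraries of a cell type. The summed level of the 22 genes of G2 and M phase went from 340 CPM (library 23) to 1570 CPM (library 34) in PSCs, from 140 to 792 CPM in S100β-GFP+ cells and from 48.1 to 384 CPM in NG2-dsRed+ cells. The 14 DNA replication genes were spread less, from 217 to 567 CPM, from 159 to 417 CPM and from 167 to 248 CPM. In S100β-GFP+ cells, libraries 14, 17 and 22 had the lowest values of their group for 33 of the 44 genes, while the 3 were below the other 5 for 10.8% of all genes tested. Mki67 was at 19.7 to 24.0 CPM in these 3 libraries and at 86.8 to 161 CPM in the other 5, and Ccnb1 at 1.41 to 6.64 CPM and 10.1 to 14.9 CPM. Ube2c and Cdkn1a of these 3 libraries remained above every NG2-dsRed+ library and every PSC library, respectively. In these libraries the summed macrophage and leukocyte markers were low as well (2610 to 7080 CPM), and the part of those cells in the result was not tested. In PSCs, where those markers summed to at most 587 CPM and Ptprc to at most 4.29 CPM, library 34 had the highest sum of mitotic genes and the lowest sum of macrophage and leukocyte markers (43.0 CPM). The same library had the highest sum of fibroblast markers among PSCs (2880 CPM) and 5490 CPM of erythroid markers, of which library 31 had 7370 CPM and the other 7 PSC libraries 120 to 505 CPM. The part of those cells in the level of library 34 was not tested.

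Across the 9 PSC libraries, Mki67 and Top2a on the log2 scale had a Pearson r of 0.69 (exact permutation p = 0.038, adjusted over 6 relations 0.0761) and a Spearman rho of 0.78 (exact permutation p = 0.0172, adjusted 0.0344), and r was 0.93 after leaving out the 2 libraries farthest from the median of Mki67. Library 18, which had a count on the fewest genes, had 32.3 CPM of Mki67 and 169 CPM of Top2a, and r without it was 0.95, given as a description because this library lay off the line. Across the 10 NG2-dsRed+ libraries r was 0.87 (two-sided permutation p = 0.0013, adjusted 0.0039) and rho 0.92 (permutation p = 0.00061, adjusted 0.00366), with r at 0.80 after leaving out 2 libraries. The S100β-GFP+ libraries fell into clusters of 5 and 3, so no pooled value is given for them, and each cluster is too small for its own. Their relations are counted among the 6 of the adjustment. Lars2, Gm23935 and Gm15564 are abundant transcripts, and the share of counts that they took (3.64% to 40.0% of a library) had an r with Mki67 of -0.45 in PSCs (exact permutation p = 0.229, adjusted 0.229) and -0.51 in NG2-dsRed+ cells (permutation p = 0.133, adjusted 0.16), with rho at -0.42 and -0.44 (permutation p = 0.27 and 0.204, adjusted 0.27 and 0.245). After leaving out 2 libraries these r were 0.03 and -0.61.

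**Figure D4:**
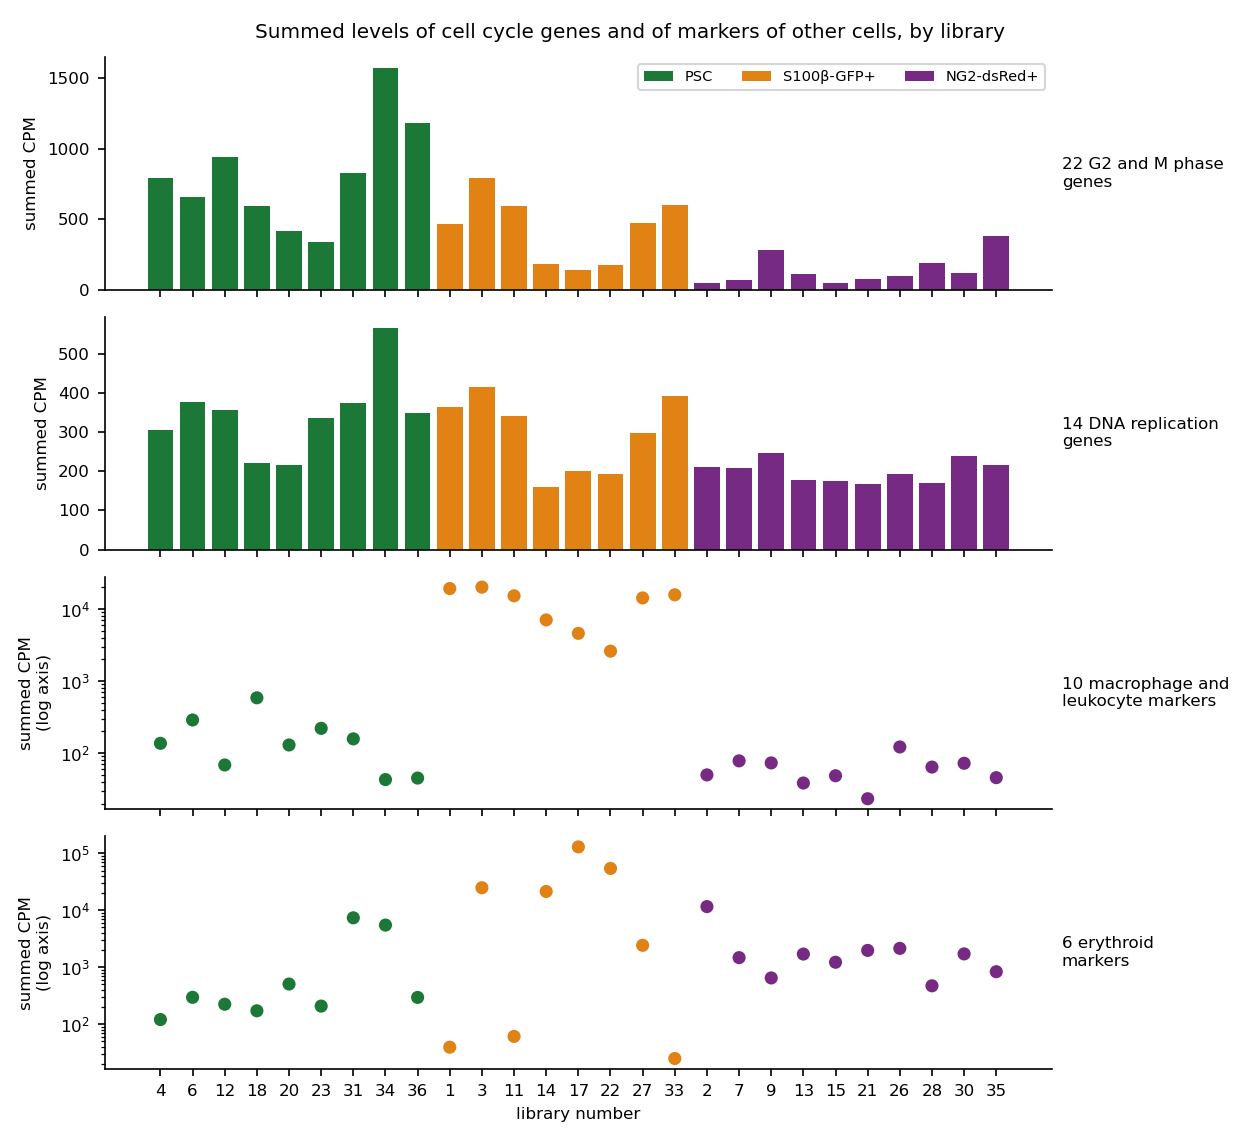
Summed CPM of the 22 genes of G2 and M phase and of the 14 DNA replication genes (bars from 0), and of 10 macrophage and leukocyte markers and 6 erythroid markers (points on log axes), in each of 27 libraries coloured by sorted cell type. The mitotic sums lie between 340 and 1570 CPM in PSCs and between 48.1 and 384 CPM in NG2-dsRed+ cells, and S100β-GFP+ libraries 14, 17 and 22 are low in both the mitotic sum and the macrophage and leukocyte sum.

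Per kilobase of exon, Ccnb2 (19.8), Top2a (18.8), Cdc20 (14.5), Mki67 (14.0) and Ube2c (13.1) had the highest medians of CPM per kilobase among the mitotic genes in PSCs, and Kif11 (0.0835) the lowest. In the same order, these 5 genes had 14.5, 11.6, 5.17, 8.93 and 10.5 CPM per kilobase in S100β-GFP+ cells and 3.02, 2.23, 2.83, 1.31 and 1.84 CPM per kilobase in NG2-dsRed+ cells.

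Another 201 genes of the same pathways were taken to see how far the pattern went. Their 11 lists share no gene with the 44 and were chosen with earlier results of these data known. Of the 196 that were tested, 121 were higher and 17 lower in PSCs than in NG2-dsRed+ cells (61.7% and 8.67%, against 20.9% and 23.1% of all genes tested), with a median log2 fold change of 0.87. In S100β-GFP+ against NG2-dsRed+ cells 54 were higher and 13 lower (27.6% and 6.63%, against 18.1% and 15.2%), with a median of 0.50. In PSCs against S100β-GFP+ cells 61 were higher and 18 lower (31.1% and 9.18%, against 22.9% and 24.1%), also with a median of 0.50. In PSCs against NG2-dsRed+ cells, 22 of 24 genes of the spindle and cytokinesis were higher, 19 of 20 of the kinetochore and checkpoint, and 12 of 13 of condensin and cohesion. In S100β-GFP+ against NG2-dsRed+ cells, 9, 6 and 5 genes of these lists were higher. The genes named next, from these and the further lists, are those with the smallest p of their list in a comparison. Racgap1, which directs cytokinesis with Kif23, had medians of 34.8, 24.5 and 4.89 CPM for PSCs, S100β-GFP+ cells and NG2-dsRed+ cells and was higher in PSCs than in NG2-dsRed+ cells by 2.70 (adjusted p = 1.12e-06). Ckap2, a spindle protein, had medians of 52.2, 9.79 and 5.38 CPM and was higher in PSCs relative to S100β-GFP+ cells by 2.26 (adjusted p = 0.0035). Espl1, separase, which cuts cohesin at anaphase, was near 0 in NG2-dsRed+ cells (0 to 2.91 CPM, median 0.617) and had medians of 12.2 and 10.3 CPM in PSCs and S100β-GFP+ cells. Mad2l1, a checkpoint protein, had medians of 17.9, 9.71 and 4.88 CPM, and Cenpa, the histone of centromeres, 16.4, 22.4 and 8.51 CPM. Zwint, a kinetochore protein, went the other way, with 13.1 to 24.6 CPM in PSCs, below all S100β-GFP+ libraries (29.0 to 46.3 CPM), and lower in PSCs in both comparisons (adjusted p = 1.27e-05 and 0.0294). Ncapd3, a subunit of condensin II, was lower in S100β-GFP+ cells than in the other 2 types, with medians of 27.2, 13.3 and 25.9 CPM.

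Of 42 other replication factors tested, 29 were higher and 3 lower in PSCs than in NG2-dsRed+ cells (69.0% and 7.14%, against 20.9% and 23.1% of all genes), and 15 were higher and 4 lower than in S100β-GFP+ cells (35.7% and 9.52%, against 22.9% and 24.1%). Prim1, a primase subunit, had medians of 18.4, 7.81 and 4.68 CPM and was higher in PSCs than in both (1.22 and 1.70, adjusted p = 0.000985 and 8.25e-06). Orc2, of the origin recognition complex, had medians of 20.4, 13.1 and 13.3 CPM. Dna2, a nuclease of replication and repair, was highest in S100β-GFP+ cells, with medians of 2.65, 7.33 and 0.614 CPM. Of 8 other genes of nucleotide synthesis, 5 were higher in PSCs than in NG2-dsRed+ cells and 2 than in S100β-GFP+ cells (25.0%, near the 22.9% of all genes), among them Dut, which removes dUTP (medians of 17.5, 11.4 and 11.5 CPM), while Umps, of pyrimidine synthesis, was led by S100β-GFP+ cells (15.2, 23.5 and 9.51 CPM). Of 10 genes of chromatin in S phase, 7 were higher and 1 lower in PSCs than in NG2-dsRed+ cells (70.0% and 10.0%). Ezh2, the methyltransferase of Polycomb, had 25.6, 62.6 and 94.4 CPM in PSCs, 11.8, 24.9 and 30.5 CPM in S100β-GFP+ cells and 6.47, 13.8 and 19.2 CPM in NG2-dsRed+ cells, and was 2.19 above the latter (adjusted p = 2.87e-08) and 1.45 above S100β-GFP+ cells (adjusted p = 4.05e-05). Asf1b, a histone chaperone, had medians of 12.2, 14.9 and 1.18 CPM.

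The lists of regulators were mixed. Of 18 ubiquitin ligase genes of the cycle that were tested, 6 were higher in PSCs than in NG2-dsRed+ cells (33.3%, against 20.9% of all genes) and 5 than in S100β-GFP+ cells (27.8%, near the 22.9% of all genes), and 0 were lower in either. Among the higher genes were Anapc10 (medians of 27.3, 13.0 and 15.4 CPM) and Fbxo5, the inhibitor of the anaphase-promoting complex also called EMI1 (8.97, 3.25 and 3.04 CPM). Fzr1, its other activator CDH1, had medians of 24.5, 25.7 and 16.7 CPM. Of 22 genes of the RB, E2F and DREAM group, 8 were higher and 0 lower in PSCs than in NG2-dsRed+ cells (36.4% higher, against 20.9% of all genes). Relative to S100β-GFP+ cells 5 were higher and 1 lower, and the 22.7% higher is near the 22.9% of all genes. Foxm1, the activator of G2 and M phase genes, had medians of 21.1, 9.28 and 4.18 CPM and was 2.33 above NG2-dsRed+ cells in PSCs (adjusted p = 2.55e-06), E2f5 had medians of 24.1, 10.9 and 15.2 CPM, and E2f2 of 4.32, 5.91 and 1.15 CPM. Of 21 other kinases and cyclins tested, 11 were higher and 2 lower in PSCs than in NG2-dsRed+ cells (52.4% and 9.52%, against 20.9% and 23.1%). Cdk6, a partner of D-type cyclins, had 28.1, 77.4 and 103 CPM in PSCs and 59.7, 80.0 and 90.7 CPM in NG2-dsRed+ cells but 13.0, 18.5 and 23.0 CPM in S100β-GFP+ cells. The S100β-GFP+ libraries were all below the others for Cdk6, with PSCs 2.02 above them on the log2 scale (adjusted p = 1.6e-10) and a log2 fold change of -2.11 relative to NG2-dsRed+ cells (adjusted p = 1.49e-10). Plk2, a stress-responsive kinase, had medians of 76.5, 118 and 288 CPM and was lower in PSCs than in both (adjusted p = 0.00317 and 1.48e-07).

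Of 14 tested genes of the p53 pathway and growth arrest, 8 were lower and 0 higher in PSCs relative to S100β-GFP+ cells (57.1% lower, against 24.1% of all genes), with a median log2 fold change of -0.80. Against NG2-dsRed+ cells 8 were lower and 1 higher (57.1% and 7.14%, against 23.1% and 20.9%), with a median of -0.66. Gadd45b, a stress gene that restrains the cycle, had 48.4, 64.6 and 95.8 CPM in PSCs, 193, 274 and 315 CPM in S100β-GFP+ cells and 208, 342 and 511 CPM in NG2-dsRed+ cells. Every PSC library was below every library of the other types (by 1.81 and 2.31 on the log2 scale, adjusted p = 1.76e-09 and 1.16e-11). Trp53inp1, a p53 target, had medians of 25.3, 18.3 and 46.8 CPM. Of the 4 other CDK inhibitors tested, Cdkn3, a phosphatase of CDK1 that is made in dividing cells, was higher in PSCs relative to S100β-GFP+ cells (1.39, adjusted p = 0.0143) and than in NG2-dsRed+ cells (2.76, adjusted p = 1.14e-05), and Cdkn1c, which encodes p57, had medians of 69.5, 88.4 and 144 CPM and was lower in PSCs than in NG2-dsRed+ cells (adjusted p = 0.000247).

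**Figure D5:**
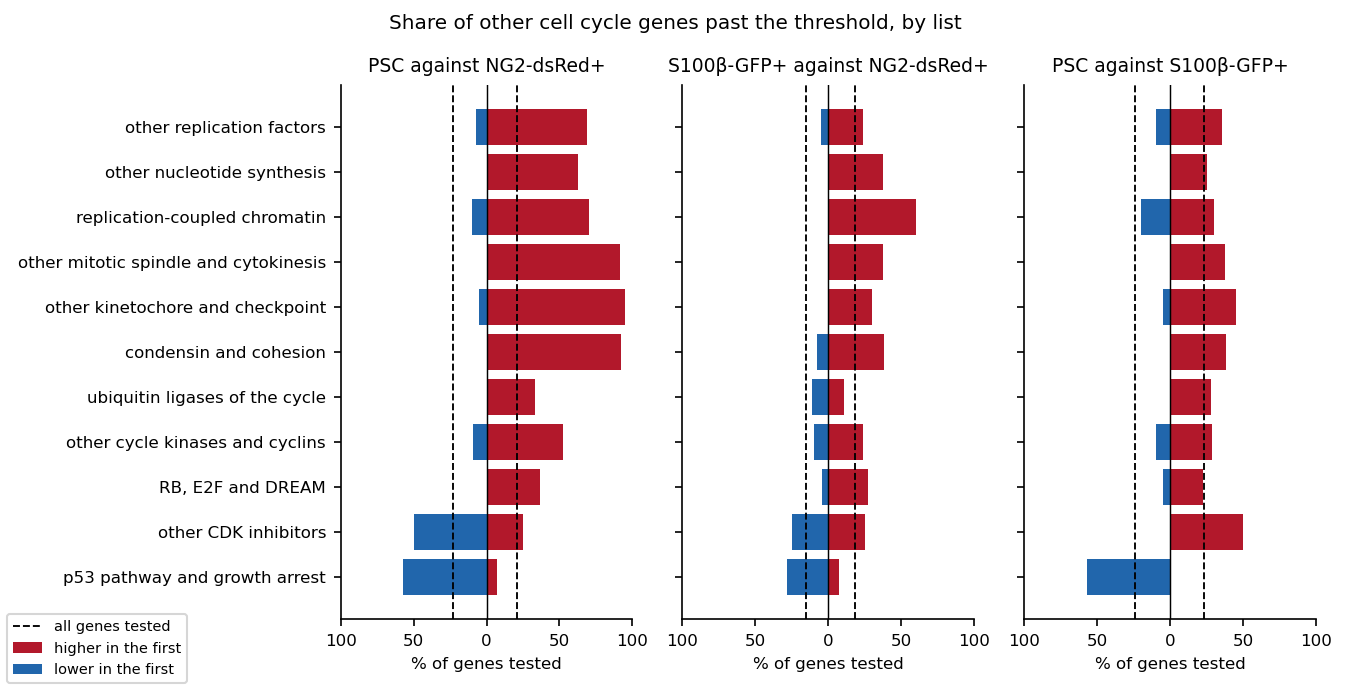
Share of the tested genes of 11 other cell cycle lists (rows) that were higher (red, to the right) or lower (blue, to the left) in the first cell type at an adjusted p under 0.05, for 3 comparisons (panels), with the shares over all 15330 genes as dashed lines. For PSCs against NG2-dsRed+ cells the 3 mitotic lists (spindle and cytokinesis, kinetochore and checkpoint, condensin and cohesion) reach 22 of 24, 19 of 20 and 12 of 13 genes higher, and the list of the p53 pathway and growth arrest has 8 of 14 lower.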

How the data were processed

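Sorted cells were lysed and their RNA amplified with the SMART-Seq v4 kit, and per the methods and the labels reads were trimmed (ea-utils, Btrim), aligned to GRCm38 (HISAT2) and counted over genes (HTSeq) by the authors. The deposited table holds raw counts for 52636 genes in 27 libraries, of which 52403 identifiers (99.56%) were found in the GENCODE M21 annotation of GRCm38. The strand setting of the counting is not given in the sources, so genes that share exonic bases cannot be told apart there. Total counts went from 5334916 to 9592875 in PSC, 5221655 to 9411399 in S100β-GFP+ and 5712256 to 7918320 in NG2-dsRed+ libraries. PCR copies were not marked by molecular identifiers, and the number of counts limits the precision of low genes. No libraries held identical counts.

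Counts were scaled by TMM and tested with the quasi-likelihood F test of edgeR 4.0.16 in R 4.3.3, with the 3 cell types in a single fit, after filterByExpr at a minimum count of 10 had kept 15330 genes. P-values were adjusted by Benjamini and Hochberg over all of these at a threshold of 0.05, and SE was taken as the log2 fold change over the root of its F value. Levels for correlations were log2 CPM with a prior count of 2, and permutation tests were two-sided, exact for 9 libraries and with 1e+05 resamples for 10 (scipy 1.17.1). Library numbers do not recur between cell types. On simulated counts of 15453 genes, 185 of them changed, edgeR recovered 24.7% of 2-fold and 88.5% of 4-fold changes between PSCs and S100β-GFP+ cells. Of its calls, 2.73% were false. Between PSCs and NG2-dsRed+ cells it recovered 39.3% and 90.6%, with 2.4% false calls. In the data, 3511 genes were higher and 3687 lower in PSCs relative to S100β-GFP+ cells. With so many more genes called, the simulated shares need not hold there. The members and lists were chosen with earlier results of these data known. Genes named are all members, from each further list the gene with the smallest p in each comparison, and markers, and some genes of these lists are not reported here. Alternatives were DESeq2 1.42.0, its size factors, no filter, pairwise fits, limma-voom (limma 3.58.1), the share of 3 transcripts as a term, a prior count of 0.5, each library left out, and S100β-GFP+ libraries 14, 17 and 22 left out.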

Additional observations from a re-analysis of the deposited data

Results flagged for a closer look

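In 10 of 132 sets of levels (44 genes in 3 cell types), a single library lay far from the rest of its cell type. The test of Dixon was applied on the log2 scale, and chance gives such a library in about 1 of 20 sets. The levels given here are in CPM, on which other libraries could stand out. PSC library 18, which had a count on the fewest genes, was the lowest of its group in 6 of the 10. It had 0.174 CPM of Gins2 (the next library had 2.65), 0 of Aurkb (2.19), 0.174 of Plk1 (5.93), 0 of Bub1 (2.09), 0.174 of Bub1b (7.65) and 0.174 of Cenpe (9.52), where 0.174 CPM is a single count. The same library had the highest PSC levels of Kif20a (45.4 CPM) and Ccnb2 (73.8 CPM), which are not among the 10.

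S100β-GFP+ library 33 had 34.7 CPM of Ccnd1, while the next had 14.0. Without it Ccnd1 was lower in S100β-GFP+ than in NG2-dsRed+ cells (log2 fold change -0.86, adjusted p = 0.00867, edgeR). S100β-GFP+ library 14 had 1.76 CPM of Cdc6 (next 3.90), and library 17 had 0.939 CPM of Cdc45 (next 3.34). NG2-dsRed+ library 13 had 1.95 CPM of Mcm2 (next 4.72).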

How the results depend on the processing

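Of 129 fold changes (43 genes in 3 comparisons), 75 passed the threshold, and 62 of these did so in each of 7 other settings and 27 fits without a single library; none of the 129 reversed a called direction. Without S100β-GFP+ libraries 14, 17 and 22, 7 genes in place of 11 were higher in PSCs relative to S100β-GFP+ cells. With no filter on low counts, 16556 genes in place of 7198 were called between PSCs and S100β-GFP+ cells and 10586 in place of 5099 between S100β-GFP+ and NG2-dsRed+ cells. With the share of 3 transcripts as a term, 2 genes in place of 1 were lower in PSCs, and 2 in place of 1 in S100β-GFP+ cells, than in NG2-dsRed+ cells, each time with Ccnd2 added, and between PSCs and S100β-GFP+ cells Ccne1 was called lower while Aurka and Plk1 were not called. Cdkn1b was the 1 gene lower in S100β-GFP+ than in NG2-dsRed+ cells, and 0 genes were lower with DESeq2, with its size factors in edgeR, with no filter, with limma-voom or without libraries 14, 17 and 22. With limma-voom, 87 in place of 54 of the other cell cycle genes were higher in S100β-GFP+ than in NG2-dsRed+ cells. The cause of these shifts was not tested. With a single library left out, 33 to 38 genes were higher and 1 lower in PSCs than in NG2-dsRed+ cells, 9 to 13 higher and 2 lower than in S100β-GFP+ cells, and 20 to 28 higher and 0 to 1 lower in S100β-GFP+ than in NG2-dsRed+ cells. The correlation of Mki67 and Top2a in PSCs went from 0.58 to 0.95 as libraries were left out. A prior count of 0.5 moved no correlation across its threshold. No paired analysis was possible because library numbers do not recur between cell types and the sources do not link libraries to mice. Few counts limit the precision of a gene, as for Kif11, with 44, 14 and 9 counts over all PSC, S100β-GFP+ and NG2-dsRed+ libraries. Kif23, a motor gene of similar exonic length, had 1438, 812 and 390 counts in the same libraries. The cause of the low counts of Kif11 was not tested.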
